A study of Mus musculus with 6 samples.

Results

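The genes described here store, export and recycle iron. They are *Fth1*, *Ftl1*, *Slc40a1*, *Cp*, *Trf*, *Slc11a1*, *Slc11a2*, *Steap3*, *Hmox1* and *Hp*, and they were chosen by name. Of these 10 genes, 7 carried their name in the deposited tables, out of 48733 named genes, and *Slc40a1*, *Slc11a2* and *Trf* did not. RNA of the strain CC016/GeniUnc, one of the inbred Collaborative Cross mouse lines, was sequenced in 6 libraries, with 3 biological replicates labelled bone and 3 labelled osteoblasts. The bone was femur with the marrow spun out. The osteoblasts were BMSC-derived, that is, stromal cells that stick to the dish were taken from marrow and differentiated with dexamethasone, ascorbic acid and beta-glycerophosphate. The groups thus differed in tissue, in culture and in these 3 additives, and shared the strain, with no engineered mutation. The methods name 3 mice for the femurs and marrow, but not which libraries share a mouse, and the age of the mice is not given in the sources used here.

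Iron enters most cells bound to transferrin, is reduced and carried out of endosomes, and is stored inside ferritin, a hollow shell of heavy (*Fth1*) and light (*Ftl1*) subunits. Macrophages take up old red cells, open their heme with heme oxygenase (*Hmox1*), and return the iron to plasma through ferroportin (*Slc40a1*), the known iron exporter of animal cells. Spleen and liver macrophages do most of this recycling, and in the marrow erythroblasts, which use much iron for hemoglobin, mature around macrophages.

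Several libraries went against their labels in markers of blood and muscle. These markers were low in bone replicates 1 and 2 and high in osteoblasts replicates 2 and 3. Bone replicate 3 had high values and osteoblasts replicate 1 low ones. *Hbb-bt*, an adult beta-globin gene, measured 34838 FPKM (fragments per kilobase of transcript, scaled to the mapped reads of a library) in the library labelled bone replicate 3, and 34268 and 48650 FPKM in those labelled osteoblasts replicates 2 and 3, against 3.43 to 7.05 FPKM in the other 3. Each of 6 erythroid and 9 neutrophil markers was higher in every one of the 3 libraries with *Hbb-bt* above 1000 FPKM than in any other. *Hbb-bt*, by which the libraries are sorted, is among the 6, so its own split was fixed in advance. Of all 12112 genes with a mean FPKM of 1 or more, 38.4% were higher in each of these 3 libraries. Of 8 osteoblast and osteocyte markers, 2 were higher in each of these 3 libraries, 3 were lower and 3 overlapped. *Sost*, a gene of osteocytes, measured 15.8 to 22.7 FPKM in the 3 and 0.0661 to 0.198 FPKM in the rest, and *Bglap2* (osteocalcin) 1641 to 1959 and 264 to 513 FPKM. *Dmp1*, also of osteocytes, went the other way at 22.5 to 24.2 and 50.04 to 127 FPKM, as did *Ibsp* at 43.1 to 91.3 and 986 to 1278 FPKM and *Alpl* at 65.96 to 94.1 and 95.4 to 205 FPKM. Summed markers of skeletal muscle came to 232 to 1068 FPKM in the 3 and at most 1.09 FPKM in the rest. Those of endothelium came to 42.3 to 52.7 and 0.289 to 5.34 FPKM, and those of osteoclasts to 707 to 803 and 47.6 to 318 FPKM. Of the 6 osteoclast markers, 3 were higher in each of the 3 libraries and 3 overlapped, among them *Ctsk* at 116 to 149 and 29.5 to 137 FPKM. The summed osteoblast and osteocyte list, most of it *Col1a1*, overlapped at 3601 to 4399 and 3201 to 5166 FPKM. Every library is therefore named by its label, and its *Hbb-bt* is given as a description, without a mean or a test between libraries sorted by it. The libraries held 2.04 to 3.39 Gb of aligned sequence. At this depth a 1 kb transcript with 3 read pairs would have 0.133 to 0.221 FPKM, a floor that allows for counting error alone. Unnamed features took 71.5% of the FPKM in bone replicate 2 and 65.0% in osteoblasts replicate 1, against 27.4 to 30.7% in the other 4, and FPKM includes them in its total.

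Transcripts of the ferritin subunits and of ferroportin are known for a hairpin, the iron-responsive element, that iron regulatory proteins bind when iron is low. At the start of a transcript it holds back translation, and near the end of the transferrin receptor transcript (*Tfrc*) it slows decay, so part of the control of these genes is not read by RNA levels. The hairpins are shown because they tie the storage and export genes together. They were found in GENCODE vM1 transcripts in the sense direction as a C, 5 bases, the 6-base loop CAGTGN and 5 bases more, with the 5 bases on either side of the loop able to pair, G with U included. The capitals mark the bulged C and the loop.
*Fth1*: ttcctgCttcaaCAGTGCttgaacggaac
*Ftl1*: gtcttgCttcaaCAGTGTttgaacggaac
*Slc40a1*: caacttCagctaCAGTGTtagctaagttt
*Tfrc*: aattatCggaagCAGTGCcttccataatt
In NCBIM37 these lie at chr19:10057222-10057250 on the plus strand, chr7:52715149-52715177 and chr1:45982310-45982338 on the minus strand, and chr16:32631305-32631333 on the plus strand. The first 3 are in the 5′ UTR. The fourth is the first of 4 matches in the 3′ UTR of *Tfrc*. The *Fth1* and *Ftl1* elements share 26 of 29 bases, and each shares 13 of 29 with that of *Slc40a1*. The pattern occurred in 3 of the 10 genes and in 279 of 22611 protein-coding genes (1.23%). In the other 7, no match with all 5 bases paired was found in the transcripts searched. Hairpins with another stem or an added bulge were not searched for, so the result does not show that these 7 lack an element.

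Of the storage genes, *Fth1* encodes the heavy subunit, which oxidises ferrous iron as it enters the shell. The tables list it on Chr. 19 from 9982703 to 9985092 of GRCm38, on the plus strand. Bone replicates 1, 2 and 3 had 804, 437 and 446 FPKM, while osteoblasts replicates 1, 2 and 3 had 921, 513 and 501 FPKM. Bone replicate 1 and osteoblasts replicate 1 were high, and the ranges of the labels overlapped. *Ftl1*, the light subunit, which aids the growth of the iron core, is listed on Chr. 7 from 45457944 to 45459884, on the minus strand. It measured 6367, 3092 and 2417 FPKM in the bone replicates and 4228, 2494 and 2362 FPKM in the osteoblast replicates. The same 2 libraries were highest, and the labels again overlapped. *Ftl1* ranked 8th to 33rd among all named genes of a library by FPKM, and *Fth1* 36th to 121st. Together they held 0.327 to 1.32% of the FPKM on named genes.

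The level of *Ftl1* relative to *Fth1* depended on the column used. The tables give the mean read coverage of each feature beside its FPKM. Divided by the depth constant of the library, the most frequent quotient of coverage and FPKM, the coverage of *Fth1* equalled its FPKM (1.00 times in each library). For *Ftl1* it was only 0.159 to 0.207 of the FPKM. By FPKM, *Ftl1* was 7.92, 7.07 and 5.42 times *Fth1* in the bone replicates and 4.59, 4.86 and 4.72 times in the osteoblast replicates. By coverage the same ratios were 1.59, 1.42 and 1.12 in the bone replicates and 0.904, 0.772 and 0.957 in the osteoblast replicates. Which subunit had the higher level in the libraries labelled osteoblasts thus changed with the column.

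On either column the ratio did not overlap between the labels, and each osteoblast replicate had less *Ftl1* per *Fth1* than each bone replicate. On the log2 scale of FPKM, *Fth1* over *Ftl1* averaged -2.75 ± 0.28 (SD, n = 3) for bone. For osteoblasts it averaged -2.24 ± 0.04 (SD, n = 3). The difference of 0.51 gave p = 0.1 in a two-sided exact permutation test, the smallest value that 3 libraries against 3 allow, so the design could not pass a threshold of 0.05. By coverage the difference was 0.64 with the same exact permutation p of 0.1. Libraries with *Hbb-bt* above 1000 FPKM fell on both sides. A ratio within a library is free of its scaling, but *Ftl1-ps1*, a processed copy on Chr. 13, was listed at 565 to 1332 FPKM and reads of near-identical copies may be split between them. With the copies added to each subunit, the difference kept its direction.

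**Figure D1:**
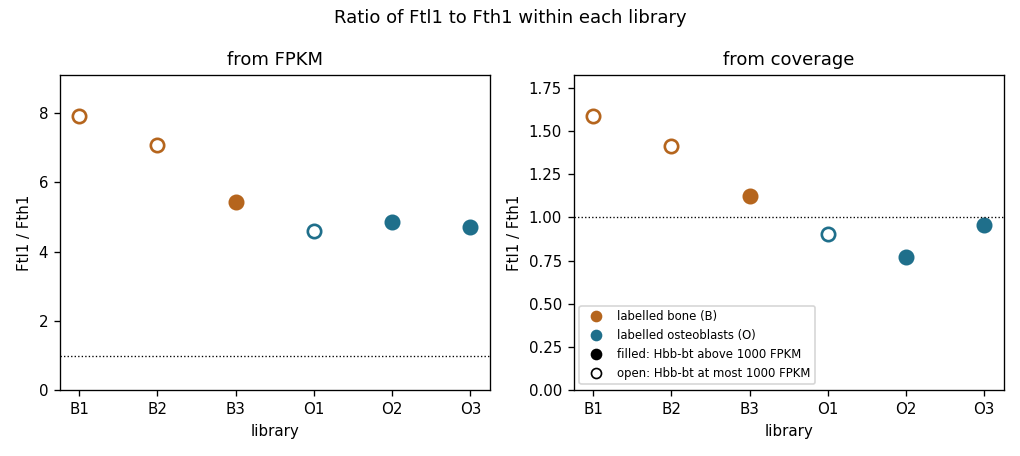
Ratio of *Ftl1* to *Fth1* in each library, from FPKM (left) and from coverage (right); B and O are libraries labelled bone and osteoblasts, filled points have *Hbb-bt* above 1000 FPKM, and the dotted line marks equal levels. The 3 bone libraries lie above the 3 osteoblast libraries in both panels, at 5.42 to 7.92 against 4.59 to 4.86 from FPKM.

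*Slc11a1* (NRAMP1) pumps iron and manganese out of the phagosome and is known for its expression in macrophages and neutrophils. It is listed on Chr. 1 from 74375195 to 74386062, on the plus strand. It measured 133, 78.9 and 21.9 FPKM in the bone replicates and 82.6, 21.5 and 23.4 FPKM in the osteoblast replicates. The 3 libraries with *Hbb-bt* above 1000 FPKM were lowest, at 21.5 to 23.4 FPKM against 78.9 to 133 FPKM in the others, while the labels overlapped. By coverage over the depth constant the same ranges were 10.7 to 12.2 and 30.8 to 48.4. Neutrophil markers, led by *S100a9* at up to 8033 FPKM, summed to 13542 to 16292 FPKM in the 3 libraries with low *Slc11a1* and to 2.54 to 9.85 FPKM in the others. Of 9 named macrophage markers, 8 moved as *Slc11a1* did. This direction, lower in each library with *Hbb-bt* above 1000 FPKM, was that of 16.9% of all 12112 genes. The macrophage list summed to 408 to 545 FPKM in the 3 libraries with *Hbb-bt* and to 1532 to 3119 FPKM in the others. *C1qa*, a complement gene of macrophages, led the list at 173 to 241 and 575 to 1156 FPKM. *Vsig4*, of resident macrophages, was at 0 in the libraries with *Hbb-bt*, and *Timd4*, of macrophages that clear dying cells, went the other way, at 5.00 to 7.00 against 0 to 0.118 FPKM. The part of these cells in the level of *Slc11a1* was not tested. In bulk RNA, fewer cells of a type and less RNA per cell cannot be told apart.

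*Steap3* reduces ferric to ferrous iron in the endosomes of erythroid cells. It is listed on Chr. 1 from 120190757 to 120277208, on the minus strand, a span wider than the RefSeq gene (120226414 to 120271081). It measured 8.23, 3.45 and 19.4 FPKM in the bone replicates and 7.13, 18.1 and 21.99 FPKM in the osteoblast replicates. Its 3 highest values were in the libraries with *Hbb-bt* above 1000 FPKM, the reverse of *Slc11a1*. Erythroid markers summed to 35889 to 50387 FPKM in those libraries and to 3.53 to 7.29 FPKM in the others, where *Epb42* was at 0. Most of this sum is *Hbb-bt*, by which the libraries are sorted, so its split was fixed in advance. The other named markers of the list were also higher in each of those libraries. The part of erythroid cells in the level of *Steap3* was not tested.

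*Hmox1*, the inducible heme oxygenase, cuts heme into iron, carbon monoxide and biliverdin. It is listed on Chr. 8 from 75093621 to 75100589, on the plus strand. It measured 155, 70.3 and 80.0 FPKM in the bone replicates and 144, 116 and 132 FPKM in the osteoblast replicates. The lowest values were those of bone replicates 2 and 3, and the labels overlapped through bone replicate 1. *Hmox1* stood above 95.4 to 98.4% of the named genes with an FPKM of at least 1 in every library, with or without *Hbb-bt*.

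*Hp* encodes haptoglobin, the plasma protein that captures free hemoglobin and that liver, fat and granulocytes are known to make. It is listed on Chr. 8 from 109575128 to 109579172, on the minus strand. It measured 351, 69.5 and 328 FPKM in the bone replicates and 211, 387 and 398 FPKM in the osteoblast replicates. Bone replicate 2 was far below the rest. The libraries with and without *Hbb-bt* above 1000 FPKM overlapped through bone replicate 1. Neutrophil markers were high in osteoblasts replicates 2 and 3, which had the most *Hp*, and low in bone replicate 2 and osteoblasts replicate 1, which had the least. In bone replicate 1 they summed to 9.85 FPKM beside the 351 FPKM of *Hp*. The 5 adipocyte markers, led by *Fabp4* at up to 80.2 FPKM, summed to 161, 27.4 and 114 FPKM in the bone replicates and 77.1, 143 and 153 FPKM in the osteoblast replicates, lowest in bone replicate 2 like *Hp*. The osteoclast and endothelial sums, at 47.6 and 0.289 FPKM, were lowest in bone replicate 2 too, as was the FPKM on named genes. The part of these cells in the level of *Hp* was not tested. The hepatocyte genes *Alb*, *Ttr* and *Fgb* were at 0 in all 6 libraries, and *Serpina1a*, the highest of that list, reached 8.07 FPKM.

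*Cp*, ceruloplasmin, is the copper enzyme that oxidises iron after export so that transferrin can bind it. It is listed on Chr. 3 from 19957054 to 20009145, on the plus strand, and overlaps *Hps3* on the other strand. It measured 16.5, 6.34 and 6.91 FPKM in the bone replicates and 7.15, 15.0 and 14.4 FPKM in the osteoblast replicates, so that each label held high and low values.

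**Figure D2:**
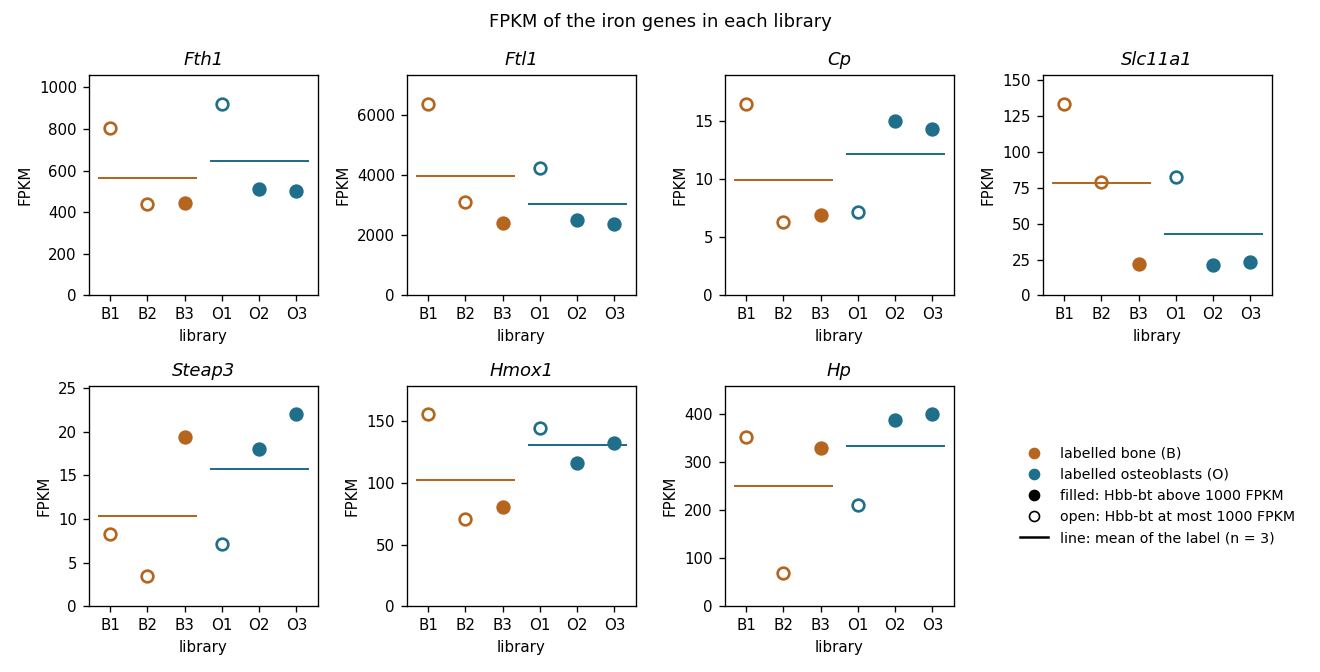
FPKM of the 7 named iron genes in each library (B labelled bone, O labelled osteoblasts; lines are means of 3; filled points have *Hbb-bt* above 1000 FPKM). *Slc11a1* is low and *Steap3* high in the filled points, and for each gene the labels overlap.

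By mean FPKM the order was *Ftl1*, *Fth1*, *Hp*, *Hmox1*, *Slc11a1*, *Steap3* and *Cp* under either label. *Ftl1* had 3959 ± 2113 and 3028 ± 1041 FPKM (mean ± SD, n = 3, bone and osteoblasts), and *Fth1* 562 ± 209 and 645 ± 239 FPKM. *Hp* had 249.7 ± 157 and 332 ± 105 FPKM, and *Hmox1* 102 ± 46.6 and 131 ± 14.0 FPKM. *Slc11a1* had 78.1 ± 55.8 and 42.5 ± 34.7 FPKM, *Steap3* 10.4 ± 8.17 and 15.7 ± 7.70 FPKM, and *Cp* 9.92 ± 5.72 and 12.2 ± 4.36 FPKM. *Ftl1*, *Fth1* and *Hp* did not overlap each other under either label. The ranges of *Hp* and *Hmox1* overlapped under the label bone, as did those of *Hmox1* and *Slc11a1*. Those of *Slc11a1* and *Steap3* overlapped under the label osteoblasts, and those of *Steap3* and *Cp* under either label. The quotient of scaled coverage and FPKM was 0.892 to 0.895 for *Hmox1* and 0.830 to 0.837 for *Hp*, but 0.362 to 0.566 for *Slc11a1*, 0.205 to 0.290 for *Cp* and 0.200 to 0.250 for *Steap3*. Relative to *Fth1*, *Hmox1* and *Hp*, levels of the last 3 are therefore lower by coverage. The order of the means changed as well. By coverage over the depth constant, *Fth1* (645) was above *Ftl1* (569) under the label osteoblasts. Under the label bone, *Cp* (2.40) was above *Steap3* (2.29).

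Scaling each library to its sum over named genes removed the share of unnamed features and also differences in the total FPKM. The sums over named genes were 823607 to 875547 in the libraries with *Hbb-bt* above 1000 FPKM and 355965 to 595021 in the others. The scaling thus lowers values in the former relative to the latter. *Fth1* then came to 878, 799 and 331 scaled FPKM in the bone replicates and 1536, 388 and 395 in the osteoblast replicates. *Hmox1* came to 170, 128 and 59.4 in the bone replicates and 240, 87.7 and 104 in the osteoblast replicates. Both genes were now higher in each library without *Hbb-bt* than in any library with it, which their FPKM had not shown. *Ftl1* was at 5648 to 7048 in the libraries without *Hbb-bt* and 1795 to 1884 in those with it, and *Slc11a1* at 138 to 146 and 16.3 to 18.5. On the FPKM scale 3 of the 7 genes (*Ftl1*, *Slc11a1* and *Steap3*) did not overlap between these libraries, where 55.3% of 12112 tested genes (mean FPKM 1 or more) did not. On the scaled values 6 of 7 did not overlap, all but *Hp*, against 70.0% of the 12112 genes. Read against these shares, the counts do not set the iron genes apart. *Steap3* alone of the 7 was higher in each library with *Hbb-bt*, on the FPKM scale beside 38.4% of all genes and on the scaled values beside 21.4%. *Ftl1* and *Slc11a1* were lower in each by FPKM, beside 16.9% of all genes, and *Cp*, *Fth1*, *Ftl1*, *Slc11a1* and *Hmox1* by scaled values, beside 48.6%.

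**Figure D3:**
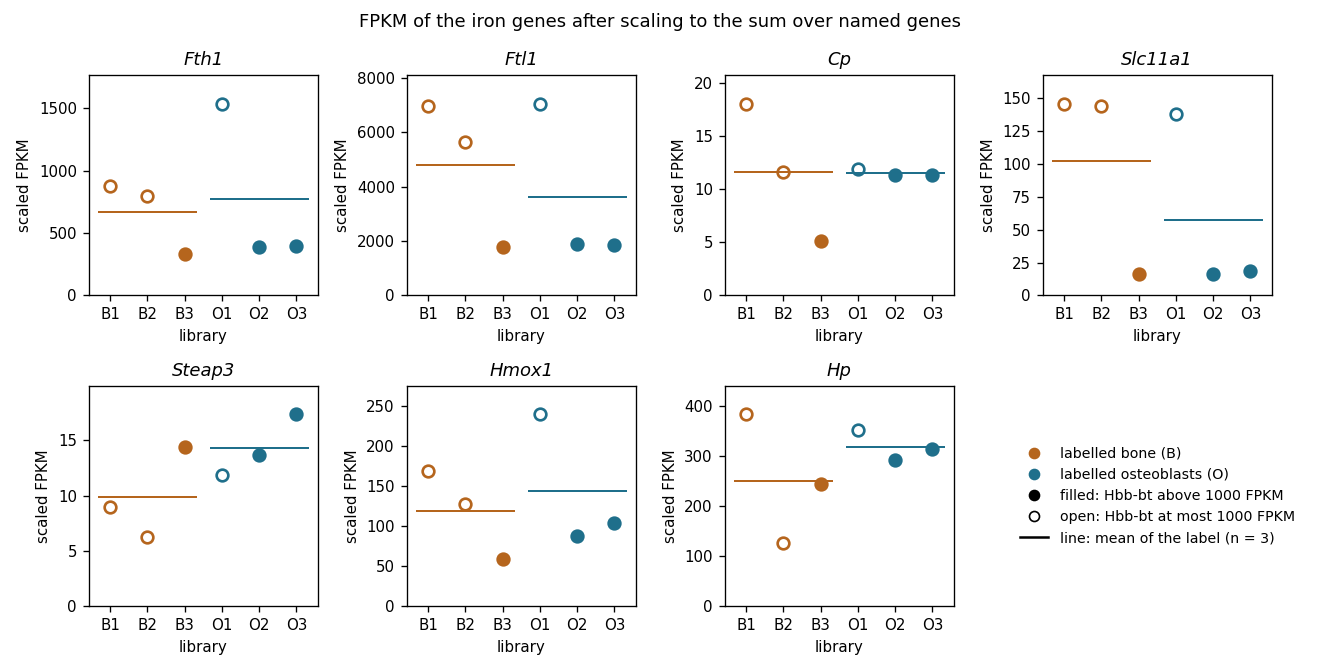
The same genes after scaling each library to the mean sum of FPKM over named genes (symbols as in the plot of FPKM). *Fth1* and *Hmox1* now separate the open from the filled points, with *Fth1* at 799 to 1536 against 331 to 395.

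The comparison between bone and osteoblasts, which the labels imply, was made with limma on log2(FPKM + 1) over the 12112 genes. After Benjamini-Hochberg adjustment it called 0 of the 7 iron genes and 0% of all genes at 0.05. Without adjustment 17 genes (0.140%) passed 0.05, and 0 of the 7 were among them. This is below the share of 0.05 expected if no gene differed. Each label mixed libraries with *Hbb-bt* above and at most 1000 FPKM, between which 55.3% of the genes did not overlap. The reason for the low count was not tested, and the absence of calls does not show that the labels are alike. The log2 fold change, osteoblasts minus bone, was -0.81 (SE 0.79) for *Slc11a1* and 0.70 (SE 0.65) for *Steap3*. It was 0.67 (SE 0.75) for *Hp* and 0.44 (SE 0.54) for *Hmox1*. For *Cp*, *Fth1* and *Ftl1* it was 0.33 (SE 0.52), 0.20 (SE 0.62) and -0.31 (SE 0.73). The limma adjusted p was 0.999 for each of the 7. Their median was 0.33, beside 0.12 over all genes tested. FPKM of the labels overlapped for 7 of the 7 genes, as did their scaled values, while 0.916% of all genes did not overlap by FPKM and 2.52% by scaled values. The median SD within a label, on the log2 scale, was 0.62 for the 7 and 0.56 for all genes, and no difference between the labels could be told from the spread between replicates. Without osteoblasts replicate 1 limma called 300 genes (2.48%) and without bone replicate 3 it called 77 (0.636%), and with the replicate number as a block 49 (0.405%), in each case with 0 of the 7.

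**Figure D4:**
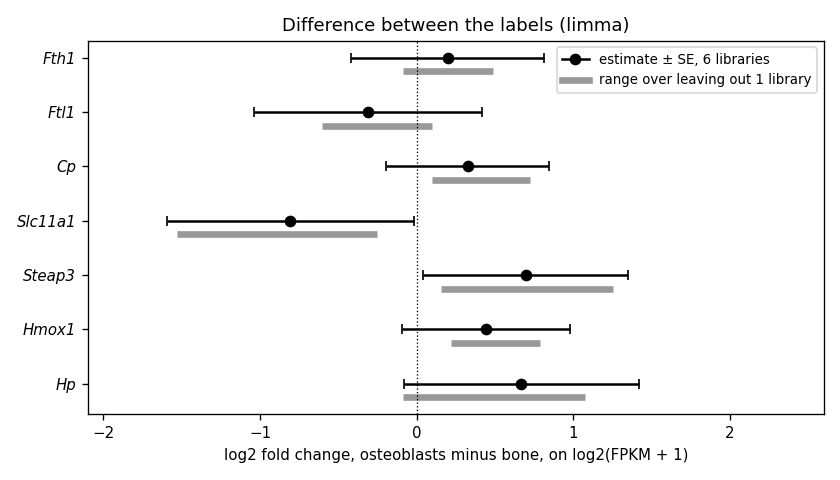
Log2 fold change between the labels for the 7 iron genes (points, with SE as bars) and its range when each library is left out in turn (grey). The estimates run from -0.81 for *Slc11a1* to 0.70 for *Steap3*, and none passed the threshold.

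The wider list of iron and heme genes held 47 others, of which 38 carried a name and 31 were among the genes tested. limma called 0 of the 31 between the labels. Their median log2 fold change was 0.11, with 19 above 0 and 12 below, beside 0.12 over all genes. Among regulators and uptake genes, *Tfrc* measured 18.2 to 32.8 FPKM in the bone replicates and 19.4 to 45.2 FPKM in the osteoblast replicates. *Meltf*, melanotransferrin, was at 4.67 to 8.32 FPKM in the libraries with *Hbb-bt* and at 0 to 0.0438 FPKM in the others. Of the metalloreductases, *Steap4* measured 0.455 to 8.31 FPKM over all libraries. *Steap2* ran against *Steap3*, at 5.53 to 11.9 FPKM in the libraries without *Hbb-bt* and 0.224 to 0.304 FPKM in those with it.

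*Slc25a37* (mitoferrin), which brings iron into mitochondria for heme, measured 57.7 to 80.7 FPKM in the libraries with *Hbb-bt* and 2.65 to 5.39 FPKM in the others. *Blvrb*, a biliverdin reductase abundant in red cells, was at 198 to 227 and 42.7 to 85.4 FPKM in the same sets. *Spic*, the transcription factor of macrophages that recycle red cells, was at 2.46 to 7.51 and 0.309 to 0.492 FPKM, a direction opposite to that of *Slc11a1*. *Ltf*, the lactoferrin of neutrophil granules, was at 851 to 1127 FPKM with *Hbb-bt* and 0.0477 to 0.110 FPKM without it. *Lcn2*, which binds bacterial iron carriers, was at 673 to 868 and 0 to 0.742 FPKM. Of the 31 genes, 18 did not overlap between these libraries by FPKM, beside the 55.3% of all genes.

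**Figure D5:**
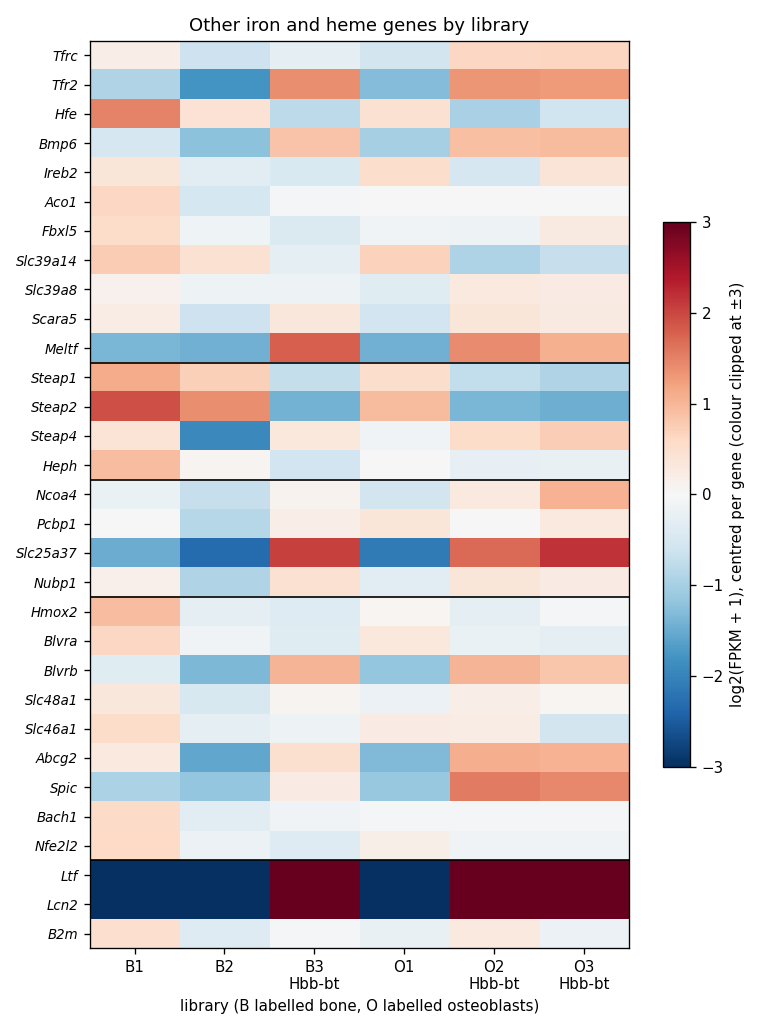
The 31 other iron and heme genes tested, as log2(FPKM + 1) centred on each gene's mean, in groups by role (regulators and uptake, reductases and oxidases, ferritin and iron handling, heme recycling, innate immune iron binding). *Ltf*, *Lcn2* and *Slc25a37* are high and *Steap2* low in the 3 libraries marked Hbb-bt.

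The genes nearest in pattern to each iron gene were found by the root mean square difference of centred log2(FPKM + 1) over the 6 libraries, among 4349 genes whose mean was 10 FPKM or more. The libraries share depth and composition, so likeness is a description. It was read from FPKM alone, and no ranking was made by coverage. For *Slc11a1* the quotient of scaled coverage and FPKM ran from 0.362 to 0.566 over the libraries. *Slc11a1* was nearest to *Lhfp* (0.089), which the paper favours among the genes at its bone mineral density locus. *Lhfp* measured 49.5, 29.2 and 6.21 FPKM in the bone replicates and 29.1, 7.23 and 7.46 FPKM in the osteoblast replicates. *Enah* (0.090) and *Fkbp7* (0.11) followed. *Hp* was nearest to *Scd1* (0.097), a fatty acid desaturase abundant in fat, then to *Ctsk* (0.15), the cathepsin of osteoclasts, and *Gm14176* (0.16). *Steap3* was nearest to *Hdgf* (0.085), *Arhgef1* (0.093) and *Gpi1* (0.10). *Ftl1* was nearest to *Emp3* (0.044), *Cbr1* (0.054) and *Sec31a* (0.056), and *Fth1* to *Ywhab* (0.075), *AC159892.1* (0.082) and *Plau* (0.086). *Hmox1* was nearest to *Ddx5*, *Gm4202* and *Cops5* (0.10 to 0.11), and *Cp* to *Rbm6*, *Rpl7* and *Tmsb4x* (0.10 to 0.12).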

How the data were processed

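Total RNA libraries (TruSeq RNA kit, 75 bp paired-end reads) were aligned by the authors to GRCm38 with HISAT2 2.0.5, and expression was estimated with StringTie 1.3.3. The authors deposited the coverage, the FPKM and the TPM of each feature of each library, without counts. FPKM is relative to all aligned reads, TPM is the same rescaled within the library, and coverage is the mean depth per base. Rows of one name were summed. Depth was read from the most frequent quotient of coverage and FPKM (coverage above 1). FPKM are not counts, so limma 3.58.1 in R 4.3.3 (lmFit, eBayes with a trend) was run on log2(FPKM + 1) for genes whose mean FPKM reached 1, after a check on simulated data. The simulated noise was independent between libraries and smaller than the spread found here, so the check does not give the power in these data. The ratio was tested with scipy 1.17.1.

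Groups are the deposited labels. The genes, lists and tests were chosen with earlier results of these data known. Genes named besides the 10 are ferritin copies with a mean FPKM of at least 1, the highest and most variable gene of each role or marker list, and the 3 nearest in pattern. *Lcn2*, *Sost*, the osteoblast markers that did not overlap, and the markers at 0 or against their list were named after their values were seen. Markers are 69 genes in 9 lists, of which 11 had no named row. The planned ratio of *Slc11a1* to *Slc11a2* was not run, since *Slc11a2* has no named row. RefSeq positions are of GRCm38.p6, and hairpins are of NCBIM37; no coordinates were converted.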

Additional observations from a re-analysis of the deposited data

Results flagged for a closer look

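Features without a gene name lie over 2 of the 3 iron genes that have no named row, on the same strand, and no comparison above uses them. They are given because their signal was above the floor of 3 read pairs in every library.

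The feature over *Slc40a1*, ferroportin, is listed on Chr. 1 from 45906124 to 45926523 of GRCm38. It measured 62.5, 36.4 and 37.8 FPKM in the bone replicates and 32.9, 57.1 and 67.5 FPKM in the osteoblast replicates, the lowest being osteoblasts replicate 1. Its labels overlapped, and by FPKM so did the libraries with and without *Hbb-bt* above 1000 FPKM. Scaled to named genes, the feature was lower in each library with *Hbb-bt* (28.1 to 53.3) than in any other (54.9 to 68.3). By scaled values 48.6% of all genes had this direction. The feature also covers the predicted gene *Gm18303*.

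The feature over *Slc11a2* (DMT1, which carries ferrous iron out of endosomes) is listed on Chr. 15 from 100387730 to 100425072. It measured 10.2, 6.14 and 14.7 FPKM in the bone replicates and 7.30, 12.1 and 13.3 FPKM in the osteoblast replicates. Its labels overlapped. By FPKM it was higher in each library with *Hbb-bt* above 1000 FPKM (12.1 to 14.7) than in any other (6.14 to 10.2), beside 38.4% of all genes. Scaled to named genes it was instead lower in each of them, at 9.18 to 10.9 against 11.1 to 12.2, beside 48.6% of all genes. Its relative *Slc11a1* ran from 16.3 to 146 on that scale. The difference between the labels was not tested for either feature. With 3 libraries per label, no search for single outlying libraries was made.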

How the results depend on the processing

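limma called 0 of the 7 iron genes in each of 16 alternatives, with adjusted p of at least 0.395. Over all genes it called 0 in the 6-library fit, 0 to 300 when 1 library was left out and 49 with the replicate number as a block; of the wider iron list it called 0, then 0 to 3 (*Ltf*, *Lcn2* and *Spic*) and 2 (*Ltf* and *Lcn2*). Same-numbered libraries had correlations of deviations of 0.84, -0.75 and 0.83. These go with *Hbb-bt*, which is alike in pairs 1 and 3 and unlike in pair 2, so whether the numbers mark shared mice cannot be told. With the replicate block the *Fth1* to *Ftl1* difference is 0.51 by construction, with an exact permutation p of 0.25, the smallest possible for 3 pairs. It was 0.39 to 0.66 when 1 library was left out, and its direction held in all 12 alternatives, none of which can give p under 0.1. The sign of *Fth1* turned with quantile normalization (-0.24) and without bone replicate 2 and osteoblasts replicate 1 together (-0.24). Leaving out 1 library gave -0.089 to 0.49 for *Fth1*, -0.60 to 0.10 for *Ftl1* and -0.089 to 1.07 for *Hp*, each with 1 change of sign, and -1.53 to -0.26 for *Slc11a1*, 0.16 to 1.25 for *Steap3*, 0.10 to 0.73 for *Cp* and 0.22 to 0.79 for *Hmox1*. The median over all genes, 0.12, moved to -0.04 with scaling to named genes. The cause was not tested. Coverage as a unit was added after seeing the data.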

Other observations

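*Trf*, transferrin, carries iron in plasma. The row that spans it on Chr. 9, from 103188032 to 103230444, is named *Srprb* and covers both genes, so the level of *Trf* was not analysed here. That row measured 160, 59.9 and 104 FPKM in the bone replicates and 66.5, 122 and 127 FPKM in the osteoblast replicates.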
